A study of Brachypodium distachyon with 214 samples.

Results

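The interaction between accession and soil drying was measured gene by gene in leaves of the annual grass Brachypodium distachyon, with 1 library per plant. It covered 213 of the 214 libraries of the series, in all 4 groups set by the sample titles. These were 48 control and 49 droughted plants of Bd21, the inbred accession that gave the species its reference genome, and 58 control and 58 droughted plants of Bd3-1, another inbred accession. Control pots were held at 85% of field capacity, the water a soil keeps after free drainage, and droughted pots had reached 55% on day 6 of a dry-down begun on day 33, counted from sowing in the study's methods and from germination in the labels. Leaf tissue was taken from every plant within 1 window around midday, in randomized order by the study's methods. The data thus hold 1 stage of drying and 1 pair of genotypes.

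The library titled Bd3-1 drought replicate 59 was left out. Of 138 genes that differed at least 4-fold between control plants of the accessions, 93.5% had a level in that library nearer to Bd21. In the other 58 droughted Bd3-1 libraries this share was 2.17% to 13.8%, and in the 49 droughted Bd21 libraries 92.0% to 99.3%. Totals of the 213 libraries ran from 0.525 to 8.37 M (mega) counts, with a median of 1.92 M and a second highest of 3.05 M. Leaf identity could be checked on few markers. Bradi4g31257, a chlorophyll a-b binding protein, averaged 120 counts per library, and plastid sequences took 4.76% to 9.66% of each library.

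A drying leaf is known to make abscisic acid, a hormone that closes stomata and switches on protective genes such as dehydrins and late embryogenesis abundant proteins, while genes of growth and photosynthesis are often lowered. An interaction between genotype and environment means that the size or the direction of such a response depends on the genotype. Here it was the log2 response to drought of Bd21 less that of Bd3-1. A positive value means a stronger rise, or a weaker fall, in Bd21, and a negative value the reverse.

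Drought acted on Bd3-1 more strongly than on Bd21 in most genes with an interaction. The interaction passed an adjusted p of 0.1 (edgeR quasi-likelihood test) in 444 of 26157 genes, or 1.70%. At an unadjusted p under 0.05 the share was 10.4%. Of the 444, 106 had a mean count under 10 per library and are not described further. Among the 12180 genes with a mean of at least 10, 338 passed, which is 2.78%. There were 99 positive values (0.813% of the 12180) and 239 negative ones (1.96%). The response was the larger in Bd3-1 for 247 of the 338 (73.1%), beside 58.8% of all 12180 genes. The median absolute interaction was 0.43 on the log2 scale, the range 0.16 to 2.48, and only 18 genes reached 1, of which 7 were positive and 11 negative. The share of positive values moved with the scaling and the filter, from 29.3% to 35.1% with RLE factors, 38.9% with DESeq2 and 39.4% with the filterByExpr filter. In 52 of the 338 genes fractional values made up at least 50% of the estimates above 0, which means that reads were shared with other transcripts, and their values are uncertain.

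Genes were then sorted by the drought test within each accession at an adjusted p of 0.05. That test called 34.1% of the 12180 genes in Bd21 and 46.1% in Bd3-1. Bd3-1 had more plants and so more power, and how far this shaped the classes was not tested. A gene called in 1 accession only may also respond in the other. Of the 338 interaction genes, 143 (42.3%) were called in Bd3-1 only, 116 (34.3%) in both accessions with 1 sign, 64 (18.9%) in Bd21 only, 10 in opposite directions and 5 in neither. The largest class, 103 genes, rose in Bd3-1 only. It was followed by 73 genes that rose in both but more in Bd3-1, 48 that fell in Bd21 only, 40 that fell in Bd3-1 only and 26 that fell in both but more in Bd3-1. A stronger response of Bd21 of either sign within a shared direction was rare, with 12 genes that rose more there and 5 that fell more. The classes used the same contrasts as the interaction, so their sizes describe the genes and test nothing further.

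**Figure D1:**
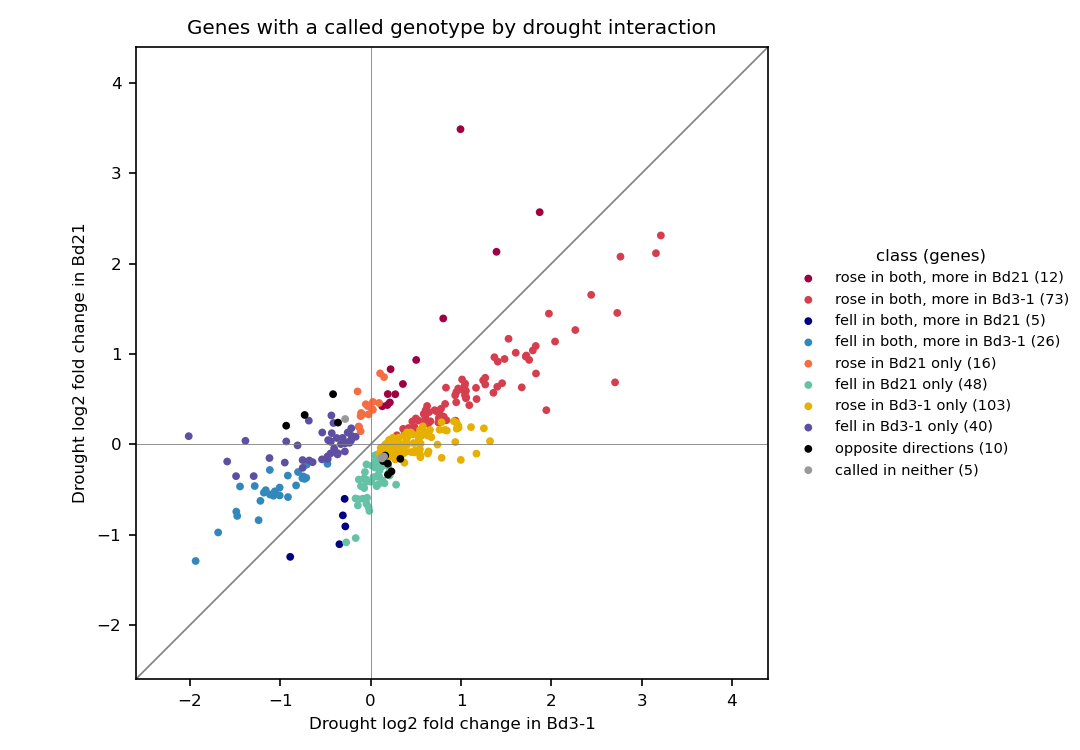
Drought log2 fold change in Bd3-1 (x axis) and in Bd21 (y axis) of the 338 interaction genes, 1 point per gene, coloured by class of response. The grey diagonal marks equal responses; the 239 genes below it have negative interactions and the 99 above it positive ones.

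The 73 genes that rose in both accessions but more in Bd3-1 had a median log2 fold change of 1.04 in Bd3-1 and 0.54 in Bd21. Bradi3g20677 had the most negative interaction of the 338, -2.03 ± 0.21 (SE, edgeR adjusted p = 7.0e-15). Its TMM-normalized count ran from 7.72 to 79.2 in Bd21 control plants with a median of 30.8, and from 25.9 to 123 with a median of 51.4 under drought. In Bd3-1 it went from 0.863 to 116.6 with a median of 17.8 in control plants to 16.5 to 275 with a median of 113.1 under drought. The control groups overlapped, yet only 4 of 49 droughted Bd21 plants exceeded the highest control plant of their accession, against 27 of 58 in Bd3-1. The control level was the higher in Bd21 and the droughted level the higher in Bd3-1, with log2 differences between Bd21 and Bd3-1 of 0.83 and -1.20 (edgeR adjusted p = 1.9e-05 and 1.1e-15).

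Bradi3g42430 of the same class rose only slightly in Bd21. Its median normalized count was 12.0 in control and 15.9 in droughted Bd21 plants (ranges 0 to 28.7 and 5.41 to 34.1). In Bd3-1 the medians were 24.4 and 101, with ranges of 5.02 to 89.3 and 13.7 to 272. The log2 rise was 0.38 ± 0.13 in Bd21 and 1.95 ± 0.14 in Bd3-1, and the interaction -1.58 ± 0.22 (edgeR adjusted p = 4.3e-08). Bradi4g23800 rose in both accessions from low control medians of 12.5 in Bd21 and 5.61 in Bd3-1. Under drought the medians were 33.1 and 43.5, with plants between 7.26 and 201 in Bd21 and between 15.2 and 142 in Bd3-1, so the Bd3-1 range lay inside that of Bd21. Its interaction was -1.28 ± 0.30 (edgeR adjusted p = 0.0062), and the accessions differed in control plants (log2 1.03, adjusted p = 0.00013) but not detectably in droughted ones (-0.26, adjusted p = 0.25). Bradi3g50220, an ortholog of an Arabidopsis homeodomain transcription factor that responds to abscisic acid, rose from a median of 22.7 to 102 in Bd21, and in Bd3-1 from 11.7 to 81.0. All 58 droughted Bd3-1 plants lay above the highest control plant of that accession, and 47 of 49 did so in Bd21. Its interaction was -0.70 ± 0.14 (edgeR adjusted p = 0.00049), but 96.2% of its estimates above 0 were not whole.

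The 12 genes that rose in both but more in Bd21 had a median log2 fold change of 0.75 there and 0.31 in Bd3-1. Bradi3g00920, which the study annotates as a leucine-rich repeat family protein, held the largest interaction of the 338, 2.48 ± 0.38 (edgeR adjusted p = 1.1e-06). In Bd21 its normalized count was 1.03 to 9.53 in control plants with a median of 4.65, and 2.96 to 251 in droughted plants with a median of 42.5. Among the Bd3-1 plants it was 0 to 5.83 with a median of 1.59 in control pots and 0 to 10.6 with a median of 3.76 under drought. Of the droughted plants, 44 of 49 exceeded every control plant of Bd21, and 14 of 58 did so in Bd3-1. The droughted Bd21 plants also spread widely, with an SD of 44.5 around a mean of 51.1. In Bd3-1 control plants no library held more than 5 counts and 11 of 58 held 0, and 21.8% of all estimates above 0 were not whole.

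Bradi1g65780 rose in every droughted plant of either accession relative to the control median. It went from a median of 34.5 to 147 in Bd21, and in Bd3-1 from 142 to 409. The interaction was 0.72 ± 0.17 (edgeR adjusted p = 0.0050), and the level stayed lower in Bd21 under both treatments, by -1.95 and -1.23 on the log2 scale. Bradi3g39800, annotated to stomatal movement through its Arabidopsis ortholog, behaved alike, with medians of 7.23 and 41.9 in Bd21 and of 22.5 and 83.3 in Bd3-1. All 49 and all 58 droughted plants lay above the control median of their accession. Its interaction was 0.68 ± 0.19 (edgeR adjusted p = 0.032) and did not pass with limma voom (0.59, adjusted p = 0.17).

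**Figure D2:**
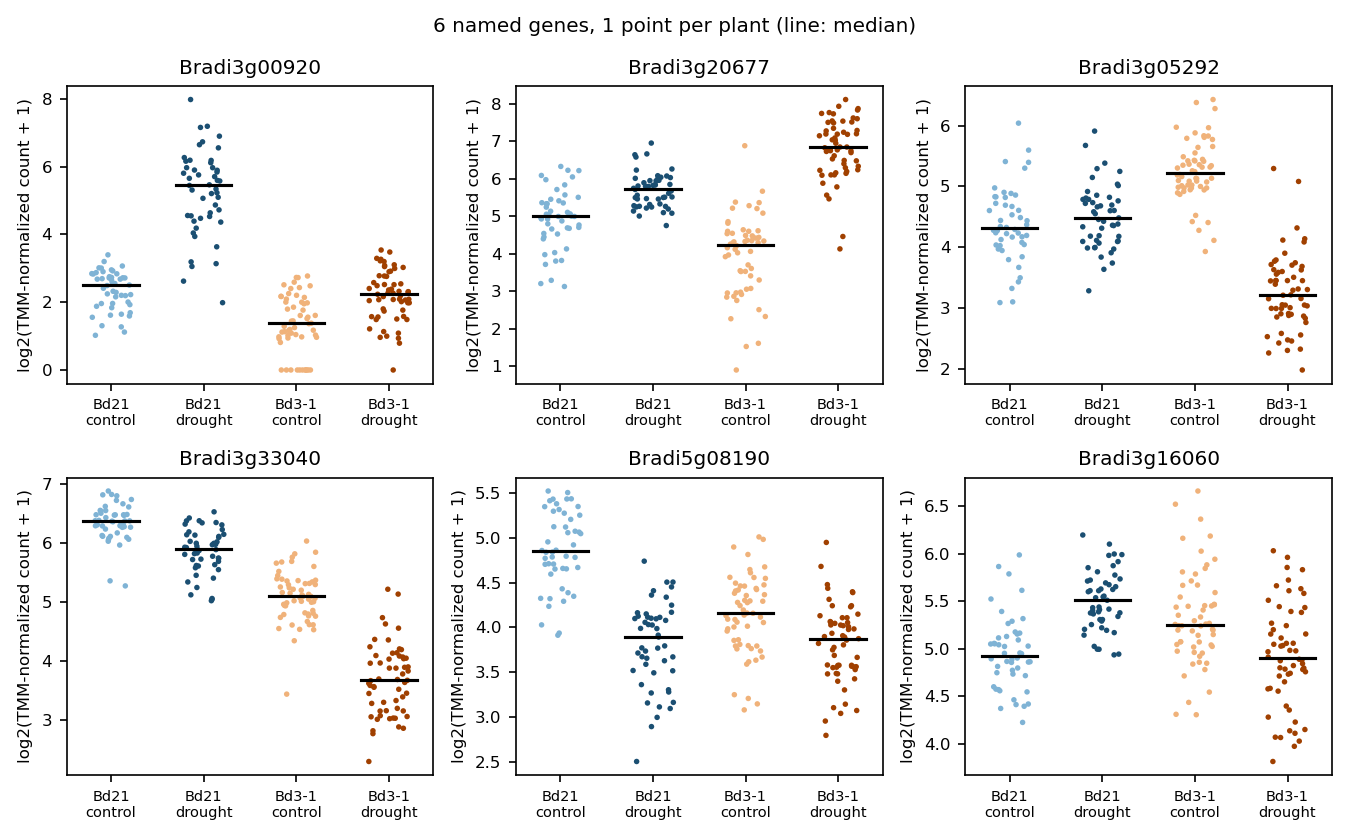
TMM-normalized counts of 6 named genes on a log2(count + 1) axis, 1 point per plant and a line at the group median, for the 48 and 49 Bd21 and the 58 and 58 Bd3-1 plants. Bradi3g00920 rises far in droughted Bd21 (median 42.5 against 4.65), Bradi3g05292 falls in droughted Bd3-1 alone (8.28 against 36.3), and Bradi3g16060 moves up in Bd21 and down in Bd3-1.

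The 103 genes that rose in Bd3-1 only had median log2 fold changes of 0.38 there and -0.0016 in Bd21. The named genes of this class already differed widely between the accessions in control plants. Bradi3g60740 had a median normalized count of 4.85 in control and 6.03 in droughted Bd21 plants, and none of the latter passed the highest control plant. In Bd3-1 it rose from a median of 43.6 (11.1 to 110) to 110 (61.8 to 206.2), and 29 of 58 droughted plants exceeded every control plant. Its interaction was -1.09 ± 0.19 (edgeR adjusted p = 3.5e-05), and the log2 difference of Bd21 over Bd3-1 went from -3.10 to -4.19. Bradi4g16812 was also low in Bd21, with medians of 2.41 and 2.70 normalized counts, and rose from 10.9 to 24.3 in Bd3-1 (interaction -1.27 ± 0.35, edgeR adjusted p = 0.031).

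Bradi3g34721 showed the reverse order of levels. It had medians of 165 and 158 in control and droughted Bd21 plants, which overlapped in full, and of 2.49 and 5.24 in Bd3-1, where 11 of 58 control libraries held 0 and no library held more than 17 counts. The interaction was -1.30 ± 0.20 (edgeR adjusted p = 1.1e-06). Reads of both accessions were matched to Bd21 sequences, and a part of the difference in level that comes from sequence differences cannot be told apart from expression. Bradi5g18277, a predicted serine-type endopeptidase, had medians of 36.6 and 47.1 in Bd21 and of 174 and 315 in Bd3-1. Its interaction of -0.67 ± 0.20 (edgeR adjusted p = 0.062) did not pass with limma voom, where the adjusted p was 0.25, or with the replicate number as a block (0.14).

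The 40 genes that fell in Bd3-1 only had median log2 fold changes of -0.45 there and 0.013 in Bd21. Bradi3g05292 on chromosome 3 stood out for how little its Bd3-1 groups overlapped. Its normalized count was 14.2 to 85.2 in Bd3-1 control plants with a median of 36.3, and 2.95 to 38.2 under drought with a median of 8.28. There, 52 of 58 droughted plants lay below the lowest control plant. In Bd21 the medians were 18.8 and 21.4 and the ranges overlapped from 8.74 to 59.1. The interaction was 2.096 ± 0.16 (edgeR adjusted p = 6.7e-24), with a log2 change of -2.01 ± 0.11 in Bd3-1 and a log2 change of 0.09 ± 0.12 in Bd21 (adjusted p = 0.66).

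Bradi3g05296, the next locus by number, moved the same way at a higher level. It held medians of 172 and 165 in Bd21, and of 173 and 70.1 in Bd3-1, where 34 of 58 droughted plants were below every control plant. Its interaction was 1.40 ± 0.27 (edgeR adjusted p = 0.00028), and the accessions did not differ detectably in control plants (log2 -0.09, adjusted p = 0.79) but did under drought (1.31, adjusted p = 5.7e-12). Bradi5g19250, a flavanone hydroxylase of flavonoid synthesis in the study's annotation, had medians of 22.8 and 20.9 in Bd21 and of 5.42 and 2.45 in Bd3-1. Single droughted Bd21 plants ranged from 0 to 147. The interaction was 1.43 ± 0.34 (edgeR adjusted p = 0.0080) and did not pass with limma voom (0.98, adjusted p = 0.29).

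The 26 genes that fell in both but more in Bd3-1 had median log2 fold changes of -1.07 there and -0.49 in Bd21. Bradi3g33040 fell from a median of 82.1 (37.7 to 117.4) to 58.7 (31.5 to 91.7) in Bd21. In Bd3-1 it fell from 33.2 (9.81 to 64.7) to 11.7 (3.89 to 36.2), where 56 of 58 droughted plants lay under the control median. The interaction was 0.97 ± 0.12 (edgeR adjusted p = 6.4e-11), and the log2 difference of Bd21 over Bd3-1 widened from 1.26 to 2.23. Bradi1g00900 began from the opposite side, with a control median of 30.8 in Bd3-1 and 12.7 in Bd21. Drought brought the medians to 13.5 and 10.5, and all 58 droughted Bd3-1 plants were below the control median (interaction 0.82 ± 0.14, edgeR adjusted p = 1.1e-05). Bradi4g22656 fell from 38.0 to 14.6 in Bd3-1 and from 24.0 to 15.4 in Bd21, with an interaction of 0.81 ± 0.21 (edgeR adjusted p = 0.025).

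The 48 genes that fell in Bd21 only had median log2 fold changes of -0.36 there and 0.06 in Bd3-1. Bradi5g27687 fell from a median of 21.7 to 9.09 in Bd21, where 47 of 49 droughted plants lay under the control median, and had medians of 11.2 and 8.25 in Bd3-1. The droughted accessions could not be told apart (log2 0.0042, adjusted p = 0.99), and the interaction was -0.83 ± 0.22 (edgeR adjusted p = 0.025). Bradi1g26000 was abundant and variable, at a mean of 560 with an SD of 386 in Bd21 control plants. Its medians were 464 and 369 in Bd21 and 260 and 386 in Bd3-1 (interaction -0.74 ± 0.22, edgeR adjusted p = 0.057). Bradi1g53550 went from a median of 25.0 to 17.9 in Bd21, with 13.8 and 14.9 in Bd3-1 (interaction -0.60 ± 0.13, edgeR adjusted p = 0.0020). Bradi2g23740, placed in wax biosynthesis through its Arabidopsis ortholog, fell from 89.4 to 60.8 in Bd21 and had medians of 43.1 and 40.0 in Bd3-1 (interaction -0.42 ± 0.11, edgeR adjusted p = 0.027), with 50.9% of estimates above 0 not whole.

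Only 5 genes fell in both but more in Bd21, and all were higher in Bd21 control plants. Bradi5g08190 fell from a median of 27.9 to 13.9 in Bd21, where all 49 droughted plants were under the control median and 25 under the lowest control plant. It went from 16.9 to 13.6 in Bd3-1, so that the droughted accessions met (log2 difference -0.0066, adjusted p = 0.97). The interaction was -0.77 ± 0.12 (edgeR adjusted p = 4.6e-06). Bradi1g35520 fell from 18.5 to 9.68 in Bd21, and in Bd3-1 from 8.91 to 7.24 (interaction -0.64 ± 0.14, edgeR adjusted p = 0.0030). Bradi4g25540 fell from 35.2 to 20.6 and from 11.4 to 9.40, and its interaction of -0.49 ± 0.15 (edgeR adjusted p = 0.089) did not pass with RLE factors (adjusted p = 0.10) or with no filter on low counts (0.11). The remaining members, named after their values were seen, were Bradi1g49790 (interaction -0.37) and Bradi4g00530 (-0.33).

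The 16 genes that rose in Bd21 only had median log2 fold changes of 0.39 there and -0.04 in Bd3-1. Bradi4g21190 rose from a median of 24.0 to 42.6 in Bd21, where 16 of 49 droughted plants exceeded every control plant, and had medians of 16.5 and 18.2 in Bd3-1 (interaction 0.58 ± 0.13, edgeR adjusted p = 0.0026). Bradi5g03550 rose from 11.8 to 17.7 in Bd21, beside 7.67 and 7.54 in Bd3-1 (interaction 0.72 ± 0.17, edgeR adjusted p = 0.0066). Bradi1g53515 rose from 5.29 to 8.02 in Bd21, beside 13.3 and 11.7 in Bd3-1 (interaction 0.48 ± 0.14, edgeR adjusted p = 0.069).

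A change of opposite sign was called in 10 genes, with 4 positive and 6 negative interactions. Bradi3g16060 was the clearest, at 0.96 ± 0.13 (edgeR adjusted p = 3.3e-09). Its median normalized count rose from 29.4 to 44.6 in Bd21, with all 49 droughted plants above the control median, and fell from 37.0 to 28.9 in Bd3-1, with 43 of 58 below it. The accessions swapped order, with log2 differences of Bd21 over Bd3-1 of -0.43 in control and 0.54 in droughted plants (edgeR adjusted p = 6.4e-05 and 4.7e-08). Bradi2g19450 went from 15.01 to 17.9 in Bd21, and in Bd3-1 from 11.0 to 8.44 (interaction 0.59 ± 0.14, edgeR adjusted p = 0.0067). Bradi1g50407 rose from 17.4 to 23.1 in Bd21, but its call in Bd3-1 rested on libraries of at most 4 counts in control plants and 3 under drought, with 27 and 32 of 58 libraries at 0. With the left-out library put back its interaction fell from 1.05 to 0.54 (edgeR adjusted p = 0.055 and 0.63). In the 5 genes called in neither accession the responses were small and of opposite sign. Bradi1g78050 had log2 fold changes of 0.28 in Bd21 and -0.28 in Bd3-1 (interaction 0.55 ± 0.17, edgeR adjusted p = 0.091), and this call was lost with limma voom (adjusted p = 0.16) and with no filter (0.11). Bradi5g27513 and Bradi1g07370 had interactions of -0.29 ± 0.09 and -0.29 ± 0.08 (edgeR adjusted p = 0.075 and 0.049). Named after their values were seen, Bradi1g64010 and Bradi2g49850 had -0.29 and -0.27.

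Some genes of large interaction lay outside the rule for named genes and were picked after their values were seen. Bradi1g26240 (-1.07), Bradi1g46710 (-1.06), Bradi1g66280 (-1.06) and Bradi3g31920 (-1.01) rose in both accessions and more in Bd3-1. Bradi2g27680 (1.13) fell in Bd3-1 only. Bradi4g44550 (1.13, opposite signs) and Bradi5g23460 (-1.18, a rise in Bd3-1 only) had 81.0% and 99.1% of estimates above 0 that were not whole.

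The interaction can also be read as a change in the difference between accessions, tested within each treatment at an adjusted p of 0.05. That test called 41.0% of the 12180 genes in control and 45.3% in droughted plants. Of the 338 interaction genes, 81 (24.0%) differed between accessions in control plants only, 116 (34.3%) under drought only and 140 in both. Among all 12180 genes, 9.67% differed in control plants only and 13.9% under drought only. The order of the accessions was reversed in 28 of the 140, and these were all 28 such genes among the 12180. Of the 112 that kept their order, the gap was wider under drought in 55 and narrower in 57. Bradi2g17570, named after its values were seen, was called in neither treatment (log2 -0.12 and 0.12). The gaps and the interaction share all their libraries, so these counts are no independent evidence of it.

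**Figure D3:**
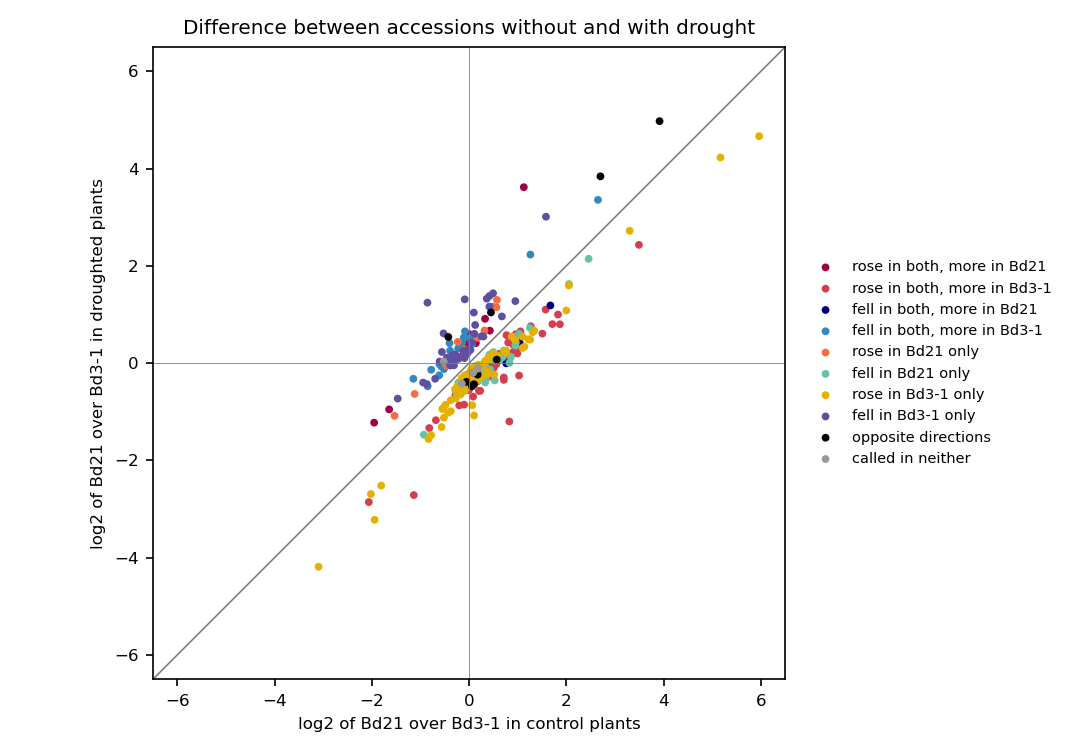
Log2 level of Bd21 over Bd3-1 in control plants (x axis) and droughted plants (y axis) of the 338 interaction genes, 1 point per gene, coloured by class. Points to the upper left and lower right of the axes changed sign, and the points farthest from the origin are genes such as Bradi3g34721 (5.96 and 4.67) and Bradi3g60740 (-3.10 and -4.19) that differed widely under both treatments.

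Within the class that rose in both but more in Bd3-1, 51 genes differed between accessions in control plants, 43 of them higher in Bd21. Of the class that fell in both but more in Bd3-1, 18 did, 15 of them higher in Bd3-1. Among all 12180 genes, 20.3% were called higher in Bd21 control plants and 20.7% higher in Bd3-1 control plants. In the class that rose in Bd3-1 only, 37 were higher in Bd21 and 21 in Bd3-1. These counts share the control libraries with the drought contrasts.

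The 56 genes that the study's text annotates were followed as lists. The study chose them on the same plants, so the counts are not independent evidence, and the interaction was called in 6 of the 56, of which 50 had a mean count of at least 10, beside 1.70% of all tested genes and 2.78% of those with that mean. Over all 26157 genes, drought raised 11.6% and lowered 10.7% in Bd21, and raised 15.4% and lowered 15.4% in Bd3-1. Of 13 genes listed under abscisic acid and drought, 12 rose in each accession and Bradi2g23740 fell in Bd21. The study groups Bradi3g00920 and Bradi4g40850 with genes of the hormone by co-expression but gives neither a role in it. The interaction, called in 1.70% of all tested genes, was called in 4 of the 13. It was positive in Bradi3g00920 and Bradi3g39800 and negative in Bradi3g50220 and Bradi2g23740. The study singled out Bradi3g00920 for its interaction in these same plants. Its call was thus known beforehand, and the count cannot be compared with the share of all tested genes. The list's median interaction was -0.05, beside -0.0050 for all 12180 genes. Other genes of the hormone's synthesis and signalling had no called interaction. Bradi1g13760, an ortholog of a dioxygenase of abscisic acid synthesis, rose by 4.01 on the log2 scale in Bd21 and 3.89 in Bd3-1, but its interaction of 0.10 had a wide 95% interval, -0.79 to 0.99. Its control libraries held at most 3 counts in Bd21 and 6 in Bd3-1, with 14 of 48 and 25 of 58 at 0. Bradi4g39520, an ortholog of a repressor induced by the hormone, rose by 3.04 and 3.17, with an interaction of -0.14 and a 95% interval of -0.52 to 0.23. The phosphatase ortholog Bradi2g41950 rose by 1.301 and 1.24 (interaction 0.05, interval -0.15 to 0.25), and another, Bradi2g18510, by 1.61 and 1.66 (interaction -0.06, interval -0.28 to 0.17). An interval that spans 0 does not show that the responses were equal.

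All 4 genes of the dehydrin list rose in each accession, with median log2 fold changes of 2.43 in Bd21 and 2.61 in Bd3-1, and none had a called interaction. The number at an unadjusted p under 0.05 was 2, beside 10.4% of all tested genes. These were Bradi4g24650 (0.25, edgeR adjusted p = 0.38) and Bradi1g44480 (-0.38, edgeR adjusted p = 0.45). The dehydrins proper, Bradi1g37410 and Bradi3g43870, held at most 3 counts in any control library, so the size of their fitted response depends on the prior count.

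The light and carbon list of 11 genes also holds genes that the study assigns to secondary metabolism. These are Bradi1g64687, Bradi3g04750, Bradi2g48450 and Bradi3g52350, of flavonoid or phenylpropanoid synthesis. None of the 11 had a called interaction. An unadjusted edgeR p under 0.05 was found in 4, beside 10.4% of all tested genes. Of the 11 values 9 were below 0, and the median over all tested genes was -0.00054. The study drew these genes from a co-expression module of the same plants, so the counts are not independent evidence. In this list 4 genes rose and 1 fell in Bd21, and 6 rose and 1 fell in Bd3-1. The lowest value belonged to the galactosyltransferase gene Bradi2g56700, -0.79 ± 0.29 (edgeR adjusted p = 0.22). Bradi1g55600, an ortholog of an early light-induced protein, had -0.67 ± 0.23 (adjusted p = 0.16), with 95.8% of estimates above 0 not whole. The 5 clock genes had no called interaction and none with an unadjusted p under 0.05, with values of -0.14 to 0.17. Of the 5, 1 rose and 2 fell in Bd21, and 1 rose and 3 fell in Bd3-1. Bradi3g51757, an ortholog of a REVEILLE transcription factor, fell by 0.71 on the log2 scale in Bd21 and by 0.89 in Bd3-1. Bradi1g29680, also a REVEILLE ortholog, fell by 0.41 and 0.48, whereas Bradi5g19380, another, rose by 0.70 and 0.82.

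Of the 7 genes of the phenylpropanoid list, named for the pathway that feeds lignin and flavonoid synthesis, 3 fell and 1 rose in Bd3-1. In Bd21, 1 rose and none fell. The gene that rose was in each accession Bradi2g11676, a MYB transcription factor in the study's annotation (log2 0.48 in Bd21 and 0.57 in Bd3-1). The secondary metabolism genes of the light and carbon list are not among the 7. Of those, Bradi2g48450 and Bradi1g64687 rose in Bd3-1 (log2 0.83 and 0.67), and Bradi3g04750 and Bradi3g52350 were not called there. Among the 7, only Bradi5g19250 had a called interaction. Bradi5g15830, a phenylalanine ammonia-lyase, had 0.40 ± 0.19 (edgeR adjusted p = 0.41). In Bd21 control plants 6 of the 7 were higher, as were 8 of the 11 genes of the light and carbon list. Of all 12180 genes with a mean count of at least 10, 20.3% were higher in Bd21 and 20.7% in Bd3-1 control plants. Among 7 NAC and chlorophyll genes 5 rose in each accession, 6 were higher in Bd3-1 control plants and none had a called interaction, with 1 at an unadjusted p under 0.05. That was Bradi4g44000, a NAC gene, which rose by 1.16 in Bd21 and 1.83 in Bd3-1 on the log2 scale (interaction -0.67 ± 0.26, edgeR adjusted p = 0.26). The last list holds the genes of the study's pairs of regulators and targets that are in no other list. It also holds Bradi1g65130, which is not a member of a pair and was shown for its interaction. Of its 9 genes, Bradi5g18277 alone was called. Other pair members are in the abscisic acid and dehydrin lists, and of these Bradi3g00920 and Bradi3g50220 were called. Bradi1g65130 held at most 3 counts in any library outside Bd3-1 control plants, and no fold is given for it.

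**Figure D4:**
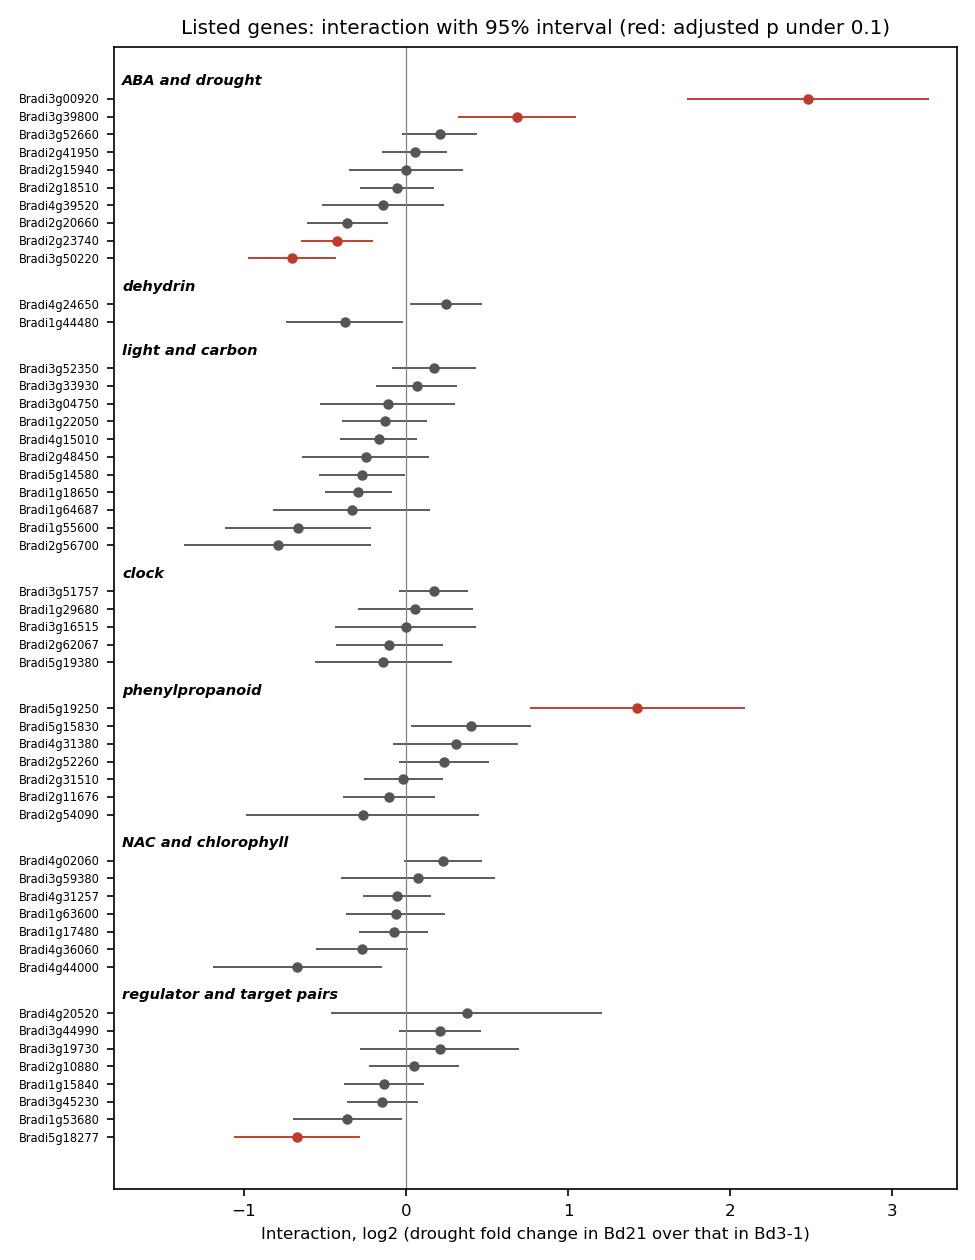
Interaction of 50 listed genes with its 95% interval on a log2 x axis, grouped by list, with called genes in red. The 6 genes with a mean normalized count under 1 in any group are not drawn, and the 6 red genes are spread over both sides of 0.

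Plants were grown in 4 experiment batches, as the study's sample records name them. The interaction differed between batches in 0 genes at an adjusted p of 0.1 with edgeR, and in 1129 genes (4.32%) at an unadjusted p under 0.05. Of the 338 interaction genes, 328 had the sign of the full fit in all 4 batches and 10 in 3 of them. The background was 22.6% of the 12180 genes with 1 sign in all batches, and the batches are parts of the same data as the call. Bradi3g05292 had values of 2.29, 1.67, 2.02 and 2.51 in the batches, and Bradi3g20677 had -2.14, -2.39, -1.65 and -2.23. Bradi4g22656 was the named gene with a batch of the other sign, with 1.41, -0.22, 0.99 and 1.18. At an unadjusted p under 0.05 the batches differed in 2 of the 33 named genes, Bradi4g22656 (unadjusted p = 0.026) and Bradi1g53515, with 0.89, 0.16, 0.075 and 1.00 (unadjusted p = 0.043).

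**Figure D5:**
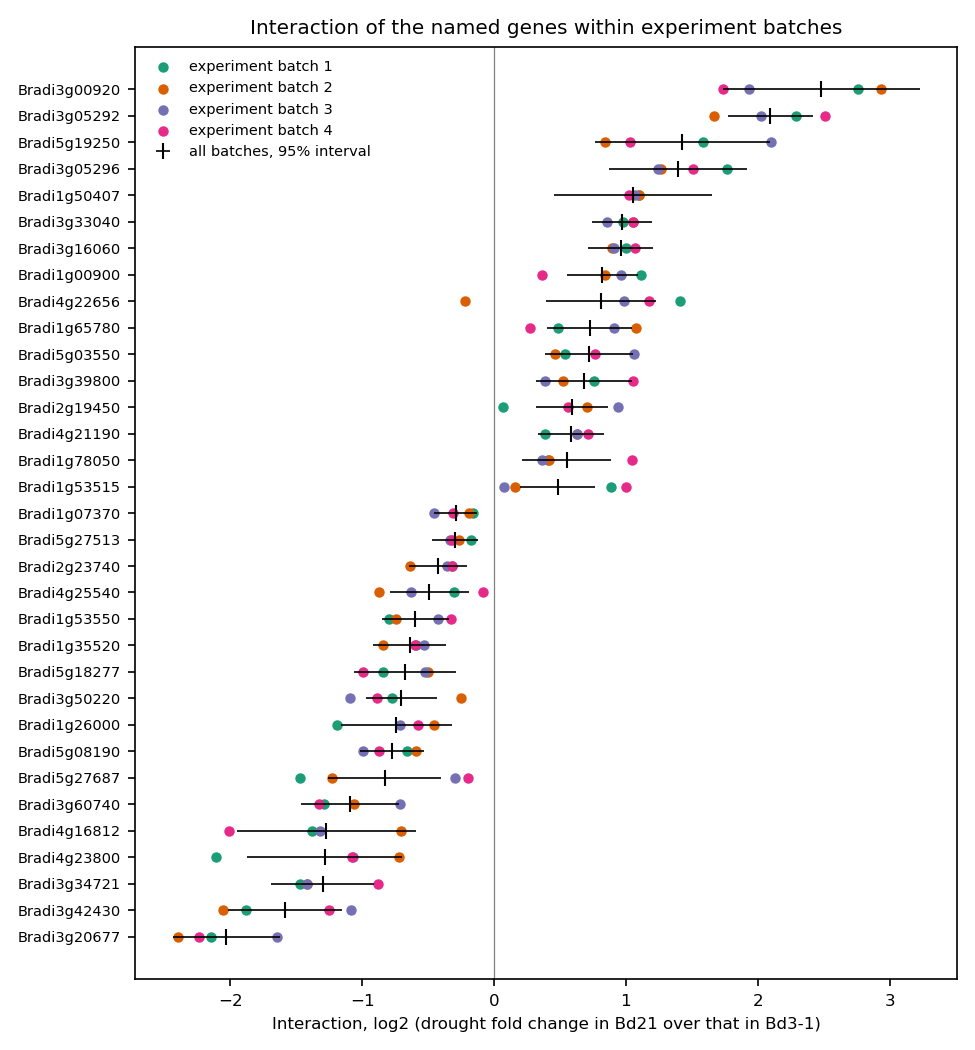
Interaction of the 33 named genes (y axis) on the log2 scale (x axis) in each of 4 experiment batches, with the value of the full fit and its 95% interval in black. Apart from Bradi4g22656 in batch 2, the points of a gene lie on 1 side of 0.

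The called genes were spread over the genome. The percentage called among genes with a mean count of at least 10 was 2.34 on chromosome 1, 2.73 on chromosome 2, 3.15 on chromosome 3, 2.91 on chromosome 4 and 3.10 on chromosome 5. There were 19 pairs of called genes that were neighbours by locus number among these genes, and 17 of the pairs had the same sign, among them Bradi3g05292 and Bradi3g05296. Fitted values of all 12107 neighbouring pairs, called or not, shared a sign in 51.1%, and 239 of the 338 called genes were negative. Whether neighbours were called together more often than other genes was not tested. Of the estimates above 0 of Bradi3g05292 and of Bradi3g05296, 0% were not whole. Whether other pairs share reads was not tested. Of 84 plastid sequences, 66 had a mean count of at least 10. The interaction was called in 3, beside 1.70% of all tested genes and 2.78% of those with that mean. Each of the 3 was negative (-0.48, -0.43 and -0.35), and at least 97.2% of its estimates above 0 were not whole.

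The calls depended on depth. After every library was thinned to 0.525 M counts, the total of the shallowest, 86 genes with a mean of at least 10 were called, and 17 of the 33 named genes no longer passed. These were Bradi1g35520, Bradi4g25540, Bradi1g00900, Bradi4g22656, Bradi5g03550, Bradi4g21190, Bradi1g53515, Bradi5g27687, Bradi1g26000, Bradi4g16812, Bradi1g50407, Bradi2g19450, Bradi1g78050, Bradi5g27513, Bradi1g07370, Bradi2g23740 and Bradi5g18277, and each kept its sign.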

How the data were processed

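Leaf messenger RNA of 214 plants was sequenced by 3′ digital gene expression, which reads a tag near the transcript end, so that counts do not grow with gene length. As the study's methods describe, reads were trimmed by the authors, placed on primary transcripts of Bd21 and on the plastid genome with Bowtie2, reduced to 1 per molecular identifier, and turned into estimated counts with RSEM. The submitters' notes name Trimmomatic 0.39, cutadapt 2.10, Bowtie2 2.4.0 and RSEM 1.3.3. The deposited table held expected counts, not normalized, for 32439 nuclear genes and 84 plastid sequences, with 0 unmatched columns. Of the estimates above 0, 86.3% were whole (within 0.001).

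Expected counts were rounded. Genes with an estimate above 0 in more than 10 of the 213 libraries were tested with edgeR 4.0.16 (R 4.3.3; TMM factors, trended dispersion, quasi-likelihood F-test) in a model of accession, treatment and their product. Drought within each accession and accession within each treatment came from separate models of those libraries. P-values were adjusted by Benjamini and Hochberg's method across every tested gene, with thresholds of 0.1 for the interaction and 0.05 otherwise. An SE is the log2 value divided by the square root of F, and a 95% interval is 1.96 SE either way. On simulated data with 200 changed genes, the interaction test called 100 of 100 genes at a log2 change of 1 and 54 of 100 at 0.5. The simulation gave every gene the same dispersion and no other group effect. It changed only genes with a mean count of at least 10, so these shares do not carry over to noisier or lower genes. Alternatives included DESeq2 1.42.0 and limma 3.58.1 (voom). Normalized counts are TMM-scaled to the mean library.

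Groups came from sample titles. Libraries are separate plants. Experiment batches and sequencing plates came from the study's sample records, matched by plant number. In each class, the 3 genes of largest absolute interaction with a mean count of at least 10 and under 50% of estimates not whole were named, plus listed genes with a called interaction. The members and lists were chosen with earlier results of these data known. None of the 31335 genes of the reference table matched a locus name (0 matches), so gene roles come from the study's text, the planned lists by product name could not be run, and no sequences or coordinates are given. A count of 0 allows up to 3 counts, for counting error only.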

Additional observations from a re-analysis of the deposited data

Results flagged for a closer look

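Each named gene is listed here because its drought response differed between the accessions by the test of the difference itself, the edgeR interaction at an adjusted p of 0.1. Among genes that rose in both accessions, the log2 interaction was 2.48 in Bradi3g00920, 0.72 in Bradi1g65780 and 0.68 in Bradi3g39800, which rose more in Bd21. It was -2.03 in Bradi3g20677, -1.58 in Bradi3g42430, -1.28 in Bradi4g23800 and -0.70 in Bradi3g50220, which rose more in Bd3-1. Among genes that fell in both, it was -0.77 in Bradi5g08190, -0.64 in Bradi1g35520 and -0.49 in Bradi4g25540, which fell more in Bd21, and 0.97 in Bradi3g33040, 0.82 in Bradi1g00900 and 0.81 in Bradi4g22656, which fell more in Bd3-1.

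Genes called in Bd21 only had 0.72 (Bradi5g03550), 0.58 (Bradi4g21190) and 0.48 (Bradi1g53515) where they rose, and -0.83 (Bradi5g27687), -0.74 (Bradi1g26000), -0.60 (Bradi1g53550) and -0.42 (Bradi2g23740) where they fell. Genes called in Bd3-1 only had -1.30 (Bradi3g34721), -1.27 (Bradi4g16812), -1.09 (Bradi3g60740) and -0.67 (Bradi5g18277) where they rose, and 2.096 (Bradi3g05292), 1.43 (Bradi5g19250) and 1.40 (Bradi3g05296) where they fell. Opposite directions were called in Bradi1g50407 (1.05), Bradi3g16060 (0.96) and Bradi2g19450 (0.59). Bradi1g78050 (0.55), Bradi5g27513 (-0.29) and Bradi1g07370 (-0.29) were called in neither accession alone.

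The library titled Bd3-1 drought replicate 59, which the main fits left out, was nearer to Bd21 in 93.5% of the 138 genes that separate the accessions, above the 2.17% to 13.8% of the other droughted Bd3-1 libraries.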

How the results depend on the processing

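All 338 described genes kept the sign of their interaction in every alternative fit except after thinning, where 337 did, and 264 of them were called in each of the 12 fits other than thinning and the cut to 48 plants per group. With libraries thinned to the lowest total, 119 genes were called, 101 of the 338 among them. A mean count of at least 10 after thinning was held by 86 (15 positive, 71 negative). With each group cut to its 48 lowest replicate numbers, which leaves fewer plants, 281 were called, 215 with that mean (57 and 158), and calls ended for Bradi4g25540, Bradi1g26000, Bradi1g50407, Bradi1g78050 and Bradi5g18277. Positive genes with that mean numbered 169 with DESeq2 and 185 with filterByExpr, against 99; the cause was not tested. A minimum absolute interaction of 1 left 90 genes, 18 with that mean. Genes higher in Bd21 than in Bd3-1 numbered 2859 in control and 3059 in droughted plants with filterByExpr, which tests 13540 genes. That set is unlike the genes with a mean of at least 10, so these numbers cannot be set against the shares given for those. No class or named gene reversed.

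With the replicate number as a block, 513 genes were called, 412 with a mean of at least 10, and 328 of the 338 remained. Nothing in the labels says that a number marks a shared source. Deviations of 300 same-numbered pairs correlated with r from -0.223 to 0.408, 140 of them over 0.1. Their median of 0.0866 was above that of other numbers (-0.0060) and of plants that shared an experiment batch (0.0138), and 7.04% of libraries correlated best with their own number. Bias-adjusted deviances, an alternative chosen after seeing the data, gave 470 genes. Leaving out any 1 of the 213 libraries moved no named interaction by more than 1.15-fold.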
